A study of Homo sapiens with 2 samples.

Results

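The kinetochore is the protein assembly that joins each chromosome to spindle microtubules. This account covers 40 genes that encode its outer and inner layers, the factors that load the centromeric histone CENPA, and the chromosomal passenger complex. The genes were listed by name, with no threshold on their values, but with earlier results of these data known. Of the 40 genes, 39 were measured among 19775 genes. CENPP was not measured, because its probe set carries several gene symbols. The samples were PC3CR, a subline of the human prostate cancer line PC3 selected in the microtubule-stabilising taxane cabazitaxel (CBZ), and the parental PC3 cells, with 1 array each. PC3CR had been kept with CBZ for 18 months and was profiled 3 months after the drug was withdrawn. PC3CR is a single subline, and long culture cannot be told apart from drug selection in this design. Each gene is given as its log2 RMA value (robust multichip average, a background-corrected and normalized array signal), and each difference is PC3CR minus PC3, so that 1 is a 2-fold difference. Since each line was profiled on 1 array, replicate error is unknown, and counts past 2-fold are descriptions without a test.

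In a dividing cell the inner kinetochore sits on nucleosomes that hold CENPA in place of the usual histone H3. Upon it the outer kinetochore builds the KNL1, MIS12 and NDC80 complexes, of which NDC80 grips the microtubule. The chromosomal passenger complex, whose kinase is AURKB, releases faulty attachments. Many of these genes are transcribed in the later part of the cell cycle, and a short promoter element, the cell cycle genes homology region (CHR, with the core TTTGAA), is known for holding such genes back until then.

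The 5 epithelial markers fixed for a check of cell identity (KRT8, KRT18, KRT19, EPCAM, CDH1) averaged 9.37 in PC3CR and 10.51 in PC3, above the array medians over genes of 6.05 and 5.93. Within this list KRT19, EPCAM, CDH1, KRT8 and KRT18 differed by -3.28, -2.49, -0.67, 0.07 and 0.67. The 2 probe sets of KRT19 differed by -3.28 and -0.98. Markers of leukocytes, endothelium and fibroblasts (PTPRC, CD3E, PECAM1, COL1A1, COL1A2) averaged 4.97 in PC3CR and 5.71 in PC3. With the probe sets used, none of the 5 was higher in PC3CR. COL1A1, at 6.56 in PC3CR and 8.69 in PC3 (-2.12), was above the median on both arrays. Its 5 probe sets ranged from -2.12 to 0.03. PECAM1, at 5.81 in PC3CR and 6.41 in PC3, was above the median in PC3 only. The prostate markers KLK2, KLK3 and TMPRSS2 lay at 4.26, 8.08 and 5.78 in PC3CR and at 4.23, 8.04 and 6.23 in PC3. Of the 39 kinetochore genes none lay below the lower quartile of genes on either array, and only CENPB lay below the median on both.

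Promoter sequences are shown first, because elements of this kind have been described in many cell cycle genes. RefSeq promoter windows on GRCh38.p14 (250 bases before to 50 after the start of transcription, the window listed first for each gene) matched 33 of the 40 genes. KNL1, KNTC1, CENPH, CENPL, CENPM, MIS18A and BIRC5 had no entry and are named only. The letters TTTGAA stood on either strand in 15 of the 33 windows (45.5%), against 15.4% of all 27305 genes in the table. Within 50 bases of the start on either side they stood in 12 of 33 (36.4%), against 4.67% of all genes. These 12 stretches follow, each on the strand that reads TTTGAA, which is in capitals, with up to 12 bases on each side.
NUF2 (chr1:163321958-163321987, + strand): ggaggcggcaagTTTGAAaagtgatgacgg
NDC80 (chr18:2571542-2571571, - strand): aagccgttcgaaTTTGAAattctccgccgg
SPC25 (chr2:168890416-168890445, - strand): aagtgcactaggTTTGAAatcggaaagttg
ZWINT (chr10:56361273-56361302, + strand): ccctaagattacTTTGAAgtcacagtcgac
SKA1 (chr18:50375068-50375095, + strand): cgcggcgggcggTTTGAAttttgcttac
SKA3 (chr13:21176538-21176567, + strand): tcccgccactagTTTGAAtctcggcgccgg
CENPF (chr1:214603223-214603244, + strand): ggctgcgggcagTTTGAAttag
CENPA (chr2:26786026-26786055, + strand): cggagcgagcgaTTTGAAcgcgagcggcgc
CENPN (chr16:81007205-81007234, + strand): gcaattggtggcTTTGAAggcgcggcgagc
CENPO (chr2:24793449-24793474, + strand): ggttggtttggtTTTGAAgacgtgga
INCENP (chr11:62123989-62124018, + strand): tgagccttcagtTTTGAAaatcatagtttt
CDCA8 (chr1:37692481-37692510, + strand): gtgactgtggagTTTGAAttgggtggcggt
They come from 7 outer kinetochore genes, from the 3 inner kinetochore genes CENPA, CENPN and CENPO, and from the 2 passenger genes INCENP and CDCA8. In NDC80, SPC25 and SKA3 the element spans the annotated start. The bases around the core differ from gene to gene, and a match is a description of the sequence and not a shown binding site.

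The CCAAT box (CCAAT on either strand) stood in 21 of 33 windows (63.6%), against 35.7% of all genes. Either of the E2F-type sites TTCCCGC and TTGGCGC stood in 12 of 33 (36.4%), against 9.33%. None of these motifs contains another. All 3 kinds were present in the windows of SPC25, ZWINT, ZW10, CENPA, CENPN and HJURP, 18.2% of the members against 0.403% of all genes. None of the kinds was present in DSN1, NSL1, CENPI, CENPP and CENPT, 15.2% of the members against 49.7% of all genes. The upstream 250 bases of the gene with the largest difference in each group are printed with all 3 kinds of motif in capitals. They are NUF2 for the outer kinetochore, CENPK for the inner kinetochore, HJURP for CENPA deposition and AURKB for the passenger complex.
NUF2 (chr1:163321704-163321953, + strand): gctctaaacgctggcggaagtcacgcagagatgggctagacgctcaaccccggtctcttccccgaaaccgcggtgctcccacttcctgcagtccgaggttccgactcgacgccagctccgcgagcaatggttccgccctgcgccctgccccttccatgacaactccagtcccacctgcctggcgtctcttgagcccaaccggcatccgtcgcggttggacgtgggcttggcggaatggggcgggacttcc
CENPK (chr5:65563169-65563418, - strand): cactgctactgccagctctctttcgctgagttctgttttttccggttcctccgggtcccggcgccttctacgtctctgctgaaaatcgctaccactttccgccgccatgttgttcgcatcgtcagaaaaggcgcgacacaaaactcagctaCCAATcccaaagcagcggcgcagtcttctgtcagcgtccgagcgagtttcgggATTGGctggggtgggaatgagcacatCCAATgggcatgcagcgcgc
HJURP (chr2:233854536-233854785, - strand): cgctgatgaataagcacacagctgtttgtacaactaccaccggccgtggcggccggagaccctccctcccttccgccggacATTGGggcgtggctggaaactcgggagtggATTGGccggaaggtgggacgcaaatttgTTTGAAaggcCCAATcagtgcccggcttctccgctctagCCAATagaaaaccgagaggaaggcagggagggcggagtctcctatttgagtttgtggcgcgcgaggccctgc
AURKB (chr17:8210226-8210475, - strand): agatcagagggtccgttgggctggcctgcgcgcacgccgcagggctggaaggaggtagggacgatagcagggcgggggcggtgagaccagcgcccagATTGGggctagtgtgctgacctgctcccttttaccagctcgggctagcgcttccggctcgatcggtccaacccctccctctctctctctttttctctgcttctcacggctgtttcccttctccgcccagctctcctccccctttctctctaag
NUF2 shows no capitals, since its TTTGAA begins 17 bases after the start. CENPK has 3 CCAAT boxes, HJURP has 4 of them with TTTGAA 111 bases before the start, and AURKB has a single CCAAT box read on the opposite strand. Among the measured genes with a window, TTTGAA stood in 8 of 13 with a difference of at least 1 and in 7 of the other 19. The CCAAT box stood in 9 of 13 and 12 of 19, and the E2F-type sites in 5 of 13 and 7 of 19.

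**Figure D1:**
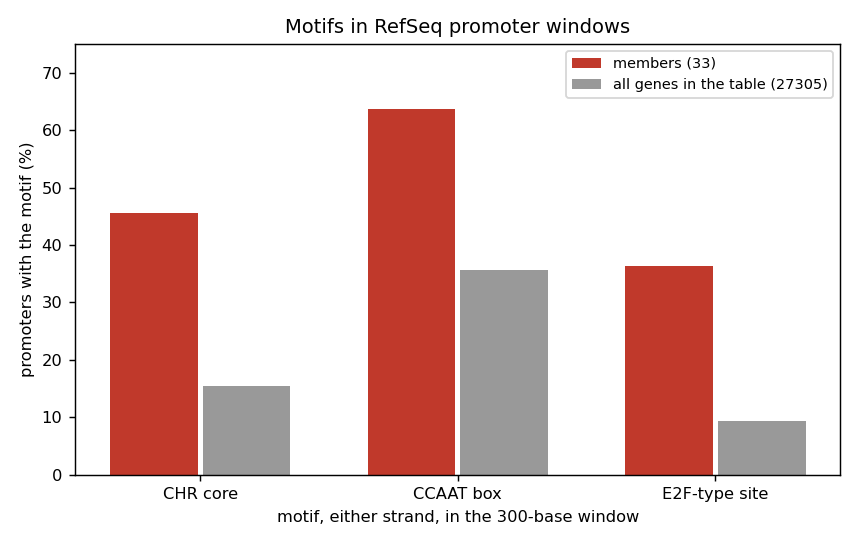
Share of promoter windows (vertical axis, percent) that hold the CHR core, a CCAAT box or an E2F-type site on either strand, for the 33 members with a window (red, left) and all 27305 genes of the table (grey, right). The red bars stand at 45.5%, 63.6% and 36.4% and the grey bars at 15.4%, 35.7% and 9.33%.

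Kinetochore genes were mostly higher in PC3CR than in PC3. Of 39 measured, 17 (43.6%) were at least 2-fold higher, against 9.84% of all genes, and 1 was at least 2-fold lower, against 6.72% of all genes. Another 21 lay within 2-fold, of which 17 were above 0 and 4 below. At 3-fold, 8 were higher, against 3.82% of all genes. When only genes with a brighter array at or above its median were counted, 17 of 38 members were at least 2-fold higher, against 15.6%, and 1 was at least 2-fold lower, against 10.8%. The median difference was 0.84 over the members and -0.04 over all genes. In total 34 members had a positive difference (87.2%), compared with 45.2% of all genes. The range ran from -1.08 for BOD1 to 2.24 for NUF2.

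**Figure D2:**
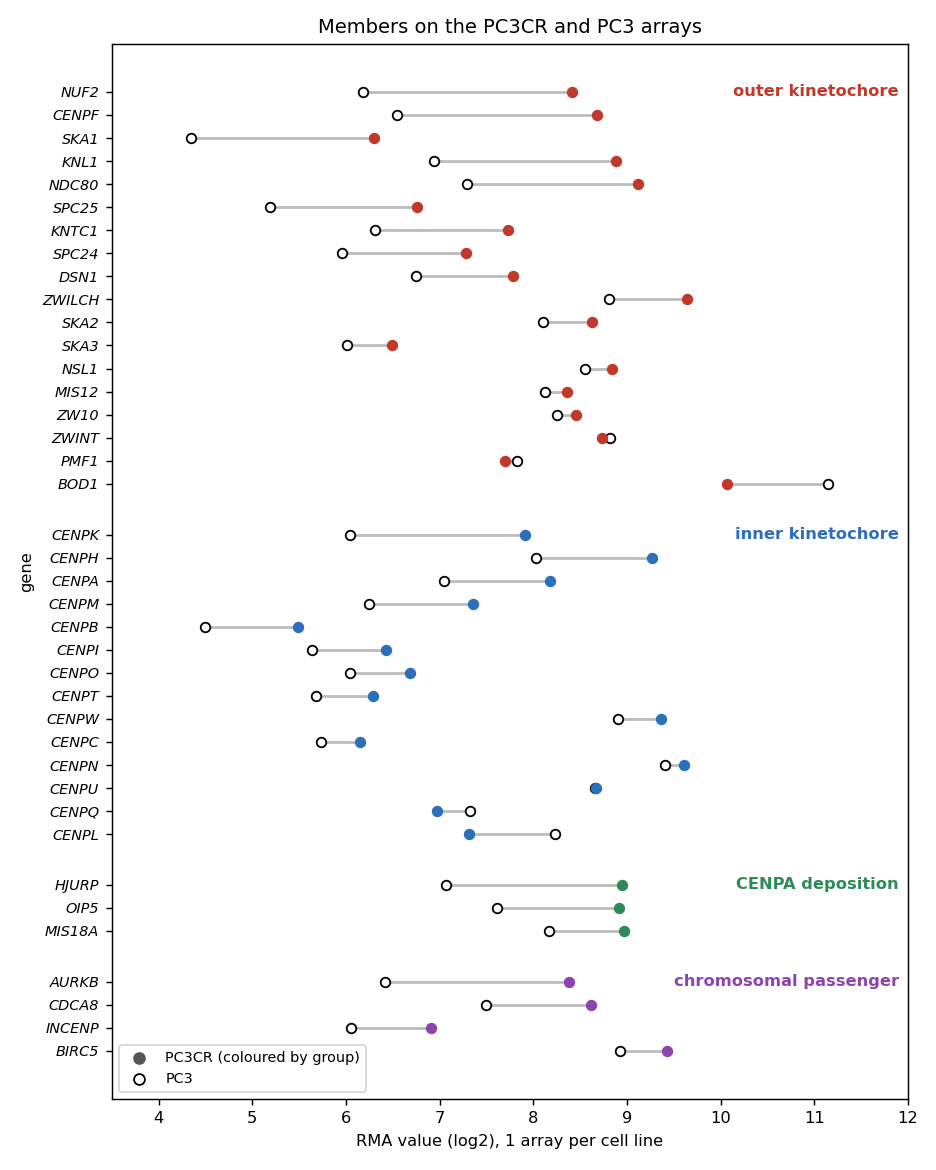
RMA values (log2, horizontal axis) of the 39 measured genes (rows, by group and falling difference), with PC3CR as filled circles coloured by group and PC3 as open circles, 1 array per cell line. The filled circle lies to the right in 34 rows, and the longest line toward lower PC3CR values is that of BOD1, at 10.07 in PC3CR and 11.15 in PC3.

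All 4 subunits of the NDC80 complex were at least 2-fold higher in PC3CR. NUF2 was at 8.42 in PC3CR and 6.18 in PC3, a difference of 2.24 or 4.72-fold. Its partner NDC80, which binds the microtubule, was at 9.12 in PC3CR and 7.29 in PC3, a difference of 1.83. Both are long coiled-coil proteins that pair through their tails. SPC25, of the pair that anchors the complex to the inner layers, was at 6.75 and 5.18 in PC3CR and PC3, a difference of 1.57. SPC24, the other anchoring subunit, was at 7.28 in PC3CR and 5.96 in PC3, a difference of 1.32. SPC24 rests on 1 of its 2 probe sets, since the other gave a difference of -0.42.

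The other outer complexes differed from subunit to subunit. KNL1, the scaffold that recruits the BUB1 and BUB1B checkpoint proteins, was at 8.88 in PC3CR and 6.94 in PC3, a difference of 1.94. ZWINT, which binds KNL1, stood apart from it, at 8.74 in PC3CR and 8.82 in PC3 (-0.08). In the MIS12 complex, which links the NDC80 complex to the centromere, only DSN1 passed 2-fold, at 7.78 in PC3CR and 6.75 in PC3 (1.03). The remaining subunits were close to 0, with NSL1 at 0.28, MIS12 at 0.23 and PMF1 at -0.13. PMF1, with the lowest difference of the complex, was at 7.70 in PC3CR and 7.83 in PC3.

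A like spread was seen in the complexes that load onto the outer kinetochore in mitosis. The RZZ complex holds dynein and the checkpoint at kinetochores that lack microtubules. Its large subunit KNTC1 was at 7.73 in PC3CR and 6.31 in PC3, a difference of 1.42, whereas ZWILCH differed by 0.84 and ZW10 by 0.20. The SKA complex strengthens the grip on microtubules. SKA1 was at 6.29 in PC3CR and 4.34 in PC3, a difference of 1.95 or 3.86-fold, while SKA2 and SKA3 differed by 0.52 and 0.48. The 2 probe sets of SKA2 had opposite signs, at 0.52 and -0.48. The PC3 value of SKA1 was close to the lower quartile of that array (4.22), which limits the precision of its difference.

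CENPF and BOD1 are outer genes that belong to none of these complexes. CENPF, a large coiled-coil protein that accumulates in G2 and binds microtubules, was at 8.67 in PC3CR and 6.55 in PC3, a difference of 2.13 or 4.37-fold. BOD1, which restrains the phosphatase PP2A-B56 at kinetochores, was at 10.07 in PC3CR and 11.15 in PC3, a difference of -1.08. It was the only member at least 2-fold lower in PC3CR. Over the 18 outer genes the median was 0.93, with 9 at least 2-fold higher.

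With the probe sets used, the inner kinetochore had a median of 0.62, below the outer one of 0.93. Of its 14 genes, 4 were at least 2-fold higher (28.6%), against 9.84% of all genes. These medians of 14 and 18 genes are set side by side without a test. Their order turned, to 0.81 for the inner and 0.68 for the outer genes, under another choice of probe sets. There, probe sets that can bind several transcripts (identifiers ending in _s_at or _x_at) were left out where a gene had another. In that setting CENPF fell from 2.13 to 0.00, on a dim probe set at 2.53 on both arrays. The inner genes CENPI and CENPN rose from 0.79 to 1.26 and from 0.20 to 1.07. CENPA, the centromeric histone, was at 8.17 in PC3CR and 7.05 in PC3, a difference of 1.13. CENPB, which binds a short motif in alpha satellite DNA, was at 5.48 in PC3CR and 4.50 in PC3, a difference of 0.98 and the nearest to the 2-fold line from below. CENPC, which ties the CENPA nucleosome to the MIS12 complex, differed by 0.42.

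Within the constitutive centromere network, the CENP-HIKM subcomplex was the part with the larger differences. CENPK was at 7.91 in PC3CR and 6.04 in PC3 (1.87), and CENPH at 9.27 in PC3CR and 8.03 in PC3 (1.24). CENPM was at 7.35 in PC3CR and 6.25 in PC3 (1.11), and CENPI differed by 0.79. In the remaining subcomplexes no gene passed 2-fold in either direction. CENPL had the lowest difference of the inner genes, at 7.31 in PC3CR and 8.23 in PC3, a difference of -0.91 that its second probe set shared at -0.83. CENPN, with which CENPL recognises the CENPA nucleosome, differed by 0.20. CENPO, CENPU and CENPQ of the CENP-OPQUR subcomplex differed by 0.63, 0.02 and -0.35, and CENPU, nearest to 0 of the inner genes, was at 8.67 in PC3CR and 8.66 in PC3. The histone-fold genes CENPT and CENPW, which offer a second route to the NDC80 complex, differed by 0.61 and 0.46. The medians were therefore 1.17 for CENP-HIKM (4 genes), 0.54 for CENPT and CENPW, 0.02 for CENP-OPQUR (3 genes) and -0.36 for CENPL and CENPN.

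All 3 genes of CENPA deposition were higher in PC3CR. HJURP, the chaperone that delivers CENPA to the centromere, was at 8.94 in PC3CR and 7.06 in PC3, a difference of 1.88 or 3.68-fold. OIP5 and MIS18A are subunits of the complex that marks the centromere for HJURP. OIP5 was at 8.91 in PC3CR and 7.62 in PC3 (1.29), and MIS18A, with the smallest difference of the 3, was at 8.97 in PC3CR and 8.17 in PC3 (0.80).

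The chromosomal passenger complex was higher in each of its 4 subunits, with a median of 0.99. AURKB, the kinase, was at 8.38 in PC3CR and 6.41 in PC3, a difference of 1.97 or 3.91-fold, and its other probe set differed by 2.13. CDCA8 (borealin) was at 8.62 in PC3CR and 7.49 in PC3 (1.13), and INCENP, the scaffold that activates AURKB, differed by 0.85. BIRC5 (survivin), which targets the complex to the inner centromere, had the smallest difference, at 9.43 in PC3CR and 8.93 in PC3 (0.50). Its other 3 probe sets differed by 0.43, 0.48 and 1.25.

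**Figure D3:**
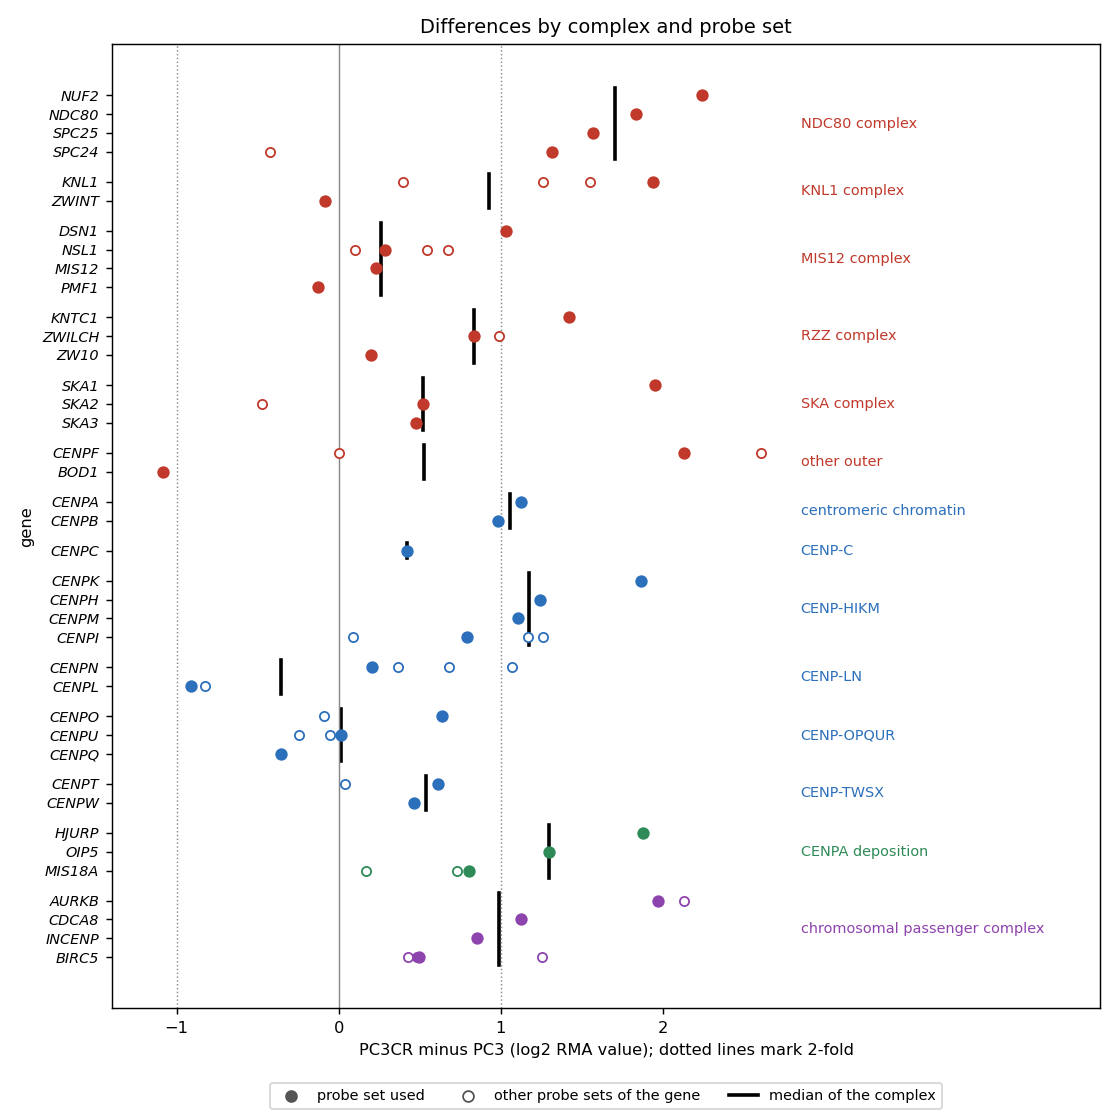
PC3CR minus PC3 (log2, horizontal axis) for each gene by complex, with the probe set used as a filled circle, further probe sets of the gene as open circles and the median of each complex as a black bar. All 4 filled circles of the NDC80 complex lie beyond the dotted 2-fold line at 1, whereas those of the CENP-LN, CENP-OPQUR and CENP-TWSX subcomplexes lie between the 2-fold lines.

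Probe sets of the same gene did not always agree. The 39 genes had 67 probe sets, of which 55 were higher in PC3CR and 25 at least 2-fold higher, while 1 was at least 2-fold lower. Of the 17 genes at least 2-fold higher, 13 had a single probe set. The other 4 were AURKB, KNL1, CENPF and SPC24, and only AURKB was at least 2-fold higher with every probe set. KNL1 ranged from 0.39 to 1.94 over 4 probe sets. CENPF differed by 2.13 and 2.61 with its brighter probe sets and by 0.00 with a dim one that had the same value on both arrays, 2.53. Conversely, CENPI, CENPN and BIRC5 lay within 2-fold although another of their probe sets differed by 1.26, 1.07 and 1.25. Signs were mixed for SPC24, SKA2, CENPO and CENPU.

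**Figure D4:**
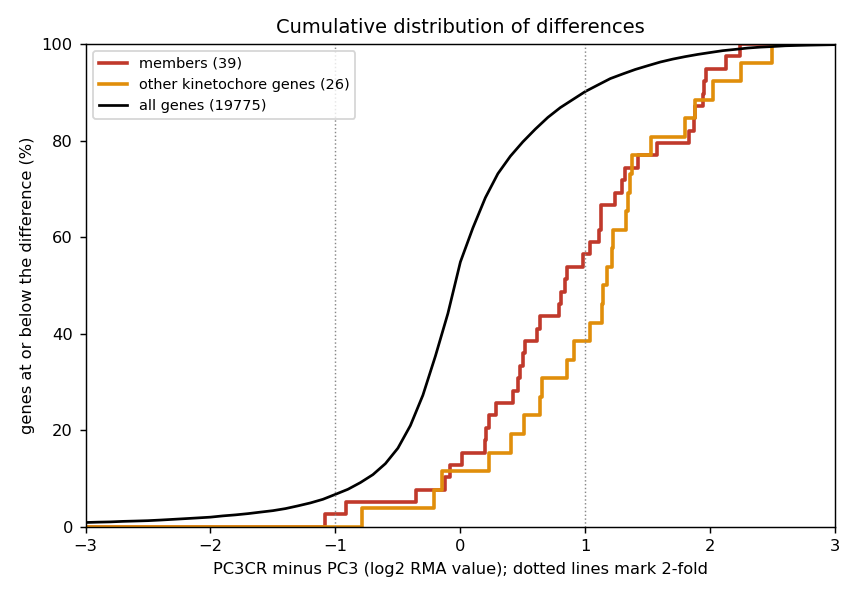
Cumulative share of genes (vertical axis, percent) at or below each difference between PC3CR and PC3 (log2, horizontal axis) for the 39 members (red), 26 other kinetochore genes (orange) and all 19775 genes (black). The red and orange curves lie to the right of the black one, with medians of 0.84, 1.16 and -0.04.

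Other genes of the kinetochore pathway were listed separately. Of 28 listed, 26 were measured, and their median difference was 1.16. In PC3CR 16 of them (61.5%) were higher by at least 2-fold, beside 9.84% of all genes, and 0 were lower by that much, beside 6.72% of all genes. CENPV, described at centromeres, was at 8.04 in PC3CR and 5.54 in PC3 (2.50), although its 3 probe sets ranged from -0.06 to 2.50. KIF20A, the kinesin that carries the passenger complex to the central spindle, was at 9.65 in PC3CR and 7.41 in PC3 (2.24). KIF2C, a microtubule depolymerase that AURKB regulates, differed by 2.02, and RACGAP1, of the centralspindlin complex, by 1.88. HASPIN, the kinase whose histone mark recruits the passenger complex, differed by 1.35. ITGB3BP, the CENP-R subunit, differed by 0.91, and CENPX, the partner of CENPT and CENPW in the CENP-TWSX subcomplex, by -0.79. HASPIN, ITGB3BP and CENPX were chosen for naming after their values were seen.

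Proliferation markers were higher beside the kinetochore genes. All 6 markers listed were higher in PC3CR, 4 of them at least 2-fold, with a mean of 9.99 in PC3CR and 8.43 in PC3. MKI67 differed by 2.70, TOP2A by 2.10, CCNB1 by 1.54, CDK1 by 1.26, PCNA by 0.92 and MCM2 by 0.84. For MKI67, TOP2A, CCNB1 and CDK1 these are the highest of 2 or more probe sets. The ranges were 0.62 to 2.70 for MKI67 (4 probe sets) and 0.80 to 2.10 for TOP2A (3). CCNB1 ranged from 1.51 to 1.54 (2) and CDK1 from 0.98 to 1.26 (4). The part of proliferation in the differences was not tested, and in bulk RNA a larger share of cells in G2 and mitosis and more kinetochore RNA per cell cannot be told apart. Among the members, 8 belong to the usual list of G2 and M phase genes used for single cells (NUF2, NDC80, BIRC5, CENPA, CENPF, AURKB, HJURP, CDCA8). Their median difference was 1.86, with 7 of 8 at least 2-fold higher (87.5%), against 9.84% of all genes. The other 31 members had a median of 0.63, with 10 at least 2-fold higher (32.3%), also against 9.84%. Of these 31, 1 was at least 2-fold lower, against 6.72% of all genes, and 26 were above 0 (83.9%), against 45.2%. The split follows this list only, and the 31 are not a set without cell cycle genes. The control genes ACTB, GAPDH and TBP differed by -0.28, -0.13 and 0.12.

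The members lie on 18 chromosomes, and their position was compared with that of their neighbours, up to 12 genes on each side that reached the array median on their brighter array. In 34 of 39 cases the member had a higher difference than the median of its neighbours, and in 18 it exceeded that median by at least 2-fold. The same comparison was not made for all genes, so these counts have no background share and are descriptions only. Of the 17 members past 2-fold, 13 had neighbours whose median lay within 0.5 of 0. HJURP differed by 1.88 while its neighbours had a median of -0.43, and KNL1 by 1.94 against -0.40. NUF2, CENPF and NDC80 had neighbours with medians of 0.30, 0.16 and 0.02.

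For 7 members the neighbours themselves had a median above 0.5. SKA1, on the long arm of chromosome 18, had neighbours with a median of 1.01, and 12 of the 24 were at least 2-fold higher, so that SKA1 exceeded its neighbours by 0.94. NDC80, on the short arm of the same chromosome, had neighbours near 0. CENPK and CENPH, which share 12 neighbours on chromosome 5, lay among genes with medians of 0.65 and 0.64. AURKB and MIS12, both on the short arm of chromosome 17, lay among genes with medians of 0.60 and 0.66, and differed by 1.97 and 0.23. NSL1 and CENPQ lay among genes with medians of 0.56 and 0.66. CENPQ minus its neighbours was -1.01, and CENPL minus its neighbours was -1.12. For 5 members the neighbours had a median below -0.5. The lowest was that of SKA2, at -0.62, although SKA2 itself differed by 0.52. CENPI and BIRC5, which differed by 0.79 and 0.50, lay among genes with medians of -0.54 and -0.53. BOD1 had neighbours with a median of -0.58, and those of ZWINT had -0.58 with 10 of 24 at least 2-fold lower. The part of DNA copy number in these medians was not tested.

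**Figure D5:**
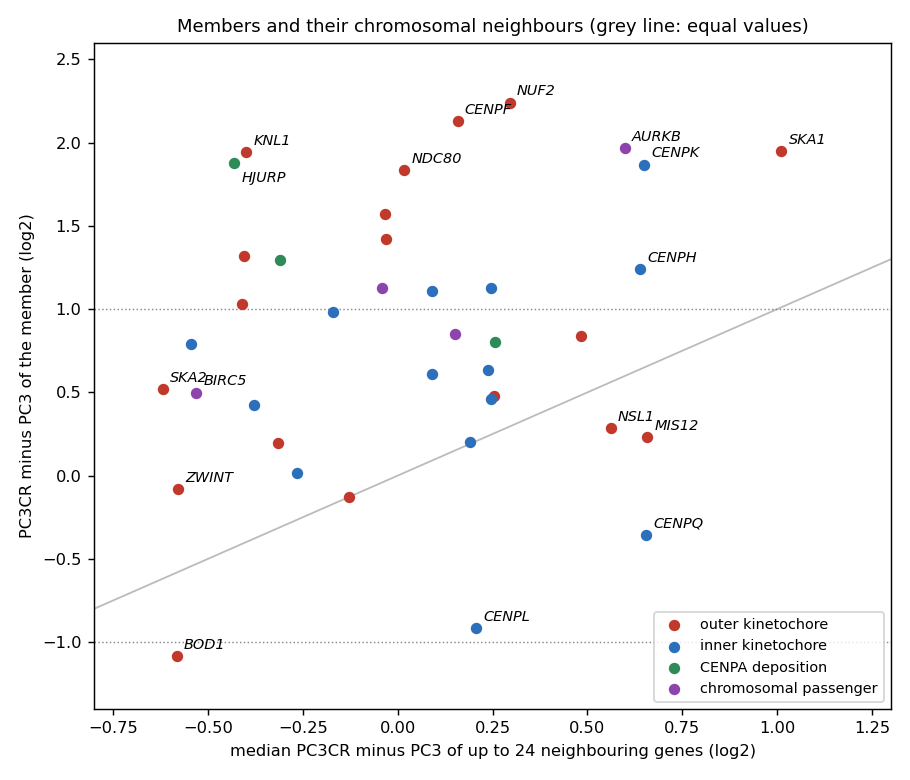
PC3CR minus PC3 of each member (vertical axis, log2) against the median difference of up to 24 neighbouring genes (horizontal axis, log2), coloured by group, with equal values on the grey line. SKA1 lies furthest to the right at 1.01, and 34 of 39 points lie above the line.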

How the data were processed

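Total RNA of PC3CR and PC3 cells was hybridised to 1 Affymetrix array each. The authors deposited log2 values, 1 for each of 54613 probe sets, made by the robust multichip average, and their processing notes name Affymetrix Expression Console 1.4 and Transcriptome Analysis Console 3.1. Scanner files were not used here. Probe set names match the U133 Plus 2.0 design, while the methods give Human Gene 1.0 ST as the array. Normalization of this kind makes the arrays alike, so that a difference in total RNA per cell is not seen.

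Probe sets with exactly 1 gene symbol (41091) were kept, symbols were updated through Entrez IDs to RefSeq on GRCh38.p14, and the probe set brightest on average stood for its gene. Calls were made at 1 or more and -1 or less (2-fold, as in the methods), and no p-value was computed because there is 1 array per cell line. Neighbouring genes, chromosomes and promoters came from RefSeq tables. The members and lists were chosen with earlier results of these data known. Named were all members, the 4 other kinetochore genes furthest from 0, and those stated. Alternatives were fold thresholds of 1.5 and 3, floors on signal at the median or lower quartile, and averaging over probe sets. Others were probe sets without _s_at and _x_at identifiers, and median, loess (span 0.4) and quantile scaling. Members were also counted without the 8 on the G2 and M phase list, or without those on chromosome 18. The software was pandas 2.3.3 and numpy 2.4.6 under Python 3.11.15, with matplotlib 3.10.9 for plots and statsmodels 0.14.6 for loess.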

Additional observations from a re-analysis of the deposited data

How the results depend on the processing

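No paired analysis was possible because each cell line has 1 array, and no replicate could be left out. Shifts over 0.1 (log2) in a median and over 1.5 times in a count are given. The 17 members at least 2-fold higher were 8 at a 3-fold threshold, against 3.82% of all genes. Without the 8 members on the G2 and M phase list they were 10 of 31, against 9.84%. Under the other alternatives the count lay between 15 and 24. The share of all genes was 18.0% at 1.5-fold, where the count was 24, and between 6.92% and 15.6% in the rest. The 1 member at least 2-fold lower became 2 at 1.5-fold or after loess centring, where CENPL was added at -1.04, and 0 at 3-fold. Among all genes, 13.5%, 7.28% and 3.1% were lower in these settings, in that order. The 16 of 26 other kinetochore genes became 5 of 26 at 3-fold, against 3.82% of all genes. The median over all members, 0.84, was 0.98 without _s_at and _x_at probe sets. It was 0.63 without the members on the G2 and M phase list. The outer median of 0.93 was 0.70 with the mean of probe sets and 0.68 without _s_at and _x_at probe sets, the inner median of 0.62 was 0.52, 0.81 and, after quantile normalization, 0.49. The inner median was thus above the outer one without _s_at and _x_at probe sets. In that setting CENPF was the only outer gene to lose its 2-fold difference, on its dim probe set. The deposition median of 1.29 was 1.19 after loess centring. The passenger median of 0.99 was 1.19 without _s_at and _x_at probe sets, 0.88 after loess centring and 0.88 after quantile normalization. No member past 2-fold changed sign under the alternatives for probe sets and scaling. SPC24 came within 2-fold as the mean of its probe sets (0.45), CENPF without _s_at probe sets (0.00), DSN1 and CENPM after loess centring (0.89 and 0.98) or quantile normalization (0.92 and 0.97), and CENPA after loess centring (0.99). CENPB passed 2-fold after median or loess centring (1.02 and 1.04), and CENPI, CENPN and BIRC5 without _s_at and _x_at probe sets. Apart from the changed composition of the sets and the changed choice of probe sets, the causes of these shifts were not tested. With 2 arrays in all, precision is limited throughout.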

Other observations

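Several members bind each other directly, and the paired genes were set side by side as a description chosen after the values were seen. In 3 of 11 such pairs both genes were at least 2-fold higher in PC3CR, namely NUF2 with NDC80 (2.24 and 1.83), SPC25 with SPC24 (1.57 and 1.32) and CENPK with CENPH (1.87 and 1.24). In 4 pairs 1 gene was, namely KNL1 with ZWINT (1.94 and -0.08), DSN1 with NSL1 (1.03 and 0.28), CENPM with CENPI (1.11 and 0.79) and OIP5 with MIS18A (1.29 and 0.80). In the other 4 pairs neither was. Taken singly, 17 of 39 members (43.6%) were at least 2-fold higher, against 9.84% of all genes. No share was computed for genes paired in another way, so these counts do not show that partners moved together. The widest gaps on the log2 scale were those of KNL1 and ZWINT, 2.02, and of CENPN and CENPL, 1.12, and the narrowest was that of CENPT and CENPW, 0.15.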
